A study of Homo sapiens with 288 samples.

Results

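The genes described here are 42 genes of the G2 phase and of mitosis, chosen by name, and all 42 were found among the 17492 protein-coding genes of the count tables. They were measured in single cells made from H1, a human embryonic stem cell line. Endothelial cells (EC) were grown in E8 medium with BMP4 at 5 ng/ml and Activin A at 25 ng/ml for 2 days and then with VEGF and WNT for 3 days. Trophoblast-like cells (TB) were grown in E7, which is E8 lacking FGF2, with BMP4 at 50 ng/ml and SB431542, a blocker of the Activin and TGF-beta receptors. Amplified cDNA stored from 45 EC and 51 TB cells, captured singly on a Fluidigm C1 device, was diluted to an equal input for each cell and made into libraries in the experiments EQ, EQ-Vary (pooled in unequal volumes) and EQ-75% (a repeat of EQ at lower depth). The labels name no separate cultures, so each cell type in each experiment is 1 sample, no test was run between EC and TB, and an SD given below is the spread between cells. Cell type, medium and culture cannot be told apart in these data.

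Entry into mitosis is driven by the kinase CDK1 bound to its A-type and B-type cyclins and activated by CDC25 phosphatases. Aurora and Polo-like kinases then organise the spindle, kinesins move chromosomes and microtubules, kinetochore proteins join chromosomes to microtubules, and the spindle checkpoint holds back the anaphase-promoting complex (APC/C) until every chromosome is attached. Transcripts of most of these genes rise in G2 and mitosis and are low in G1 and in resting cells, where repressor complexes hold many of their promoters shut through an element called CHR.

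Cells were used when their summed counts reached 5.4 on the log10 scale, which left 39 EC and 48 TB cells in EQ with 336843 to 3966800 and 365536 to 3479240 counts. EC 42 passed this limit but had 47.6% of its counts in its 50 most abundant genes, above the study's second limit of 31%. Where a gene of the 42 had its highest EC value in EC 42, its EC mean is also given without that cell. The cell types matched their labels. The mean of log2(CPM + 1), where CPM is counts per 1000000, over 10 endothelial markers was 3.88 to 8.31 in EC cells and 0.32 to 2.34 in TB cells, and over 10 trophoblast markers it was 1.69 to 4.57 in EC and 5.31 to 8.0 in TB. Of the 10 markers of each list, 9 endothelial markers were at least 2-fold higher in mean CPM in EC, and 7 trophoblast markers in TB. The markers ROBO4 and CGA were low in both types, with means of 1.39 and 2.93 CPM in the type they mark. GATA2, on the trophoblast list, was higher in EC, with means of 66.2 CPM in EC and 38.2 in TB. GATA3 had 120 CPM in EC and 236 in TB, under 2-fold. Among 7 pluripotency markers, SOX2 had a count in 0 EC and 2 TB cells, whereas LIN28A was at 10 CPM or more in all 39 EC and all 48 TB cells. NANOG reached 10 CPM in 39 EC and 46 TB cells, POU5F1 in 27 and 17 and L1TD1 in 19 and 48. For DPPA4 the numbers were 20 and 40, and for TDGF1 5 and 5. A low count was not read as expression here, and 10 CPM was taken as the level of clear detection. The endothelial cadherin gene CDH5 had a count in 31 of 48 TB cells, at a mean of 0.752 CPM, but was never at 10 CPM in TB. TEK, TIE1, ESAM, ERG and ROBO4 also reached 10 CPM in 0 TB cells. The level did not clear every endothelial marker from TB. PECAM1 reached it in 37 of 48 TB cells (mean 15.0 CPM), KDR in 4, EGFL7 in 3 and CD34 in 1.

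Most cells carried little message of the 42 genes, and a few cells of each type stood far above them. The G2/M score of a cell, the mean of log2(CPM + 1) over the 42 genes, ran from 0.57 through a median of 1.42 to 8.07 in EC (mean 2.22 ± 1.99, SD, n = 39 cells) and from 1.04 through 1.92 to 6.98 in TB (mean 2.52 ± 1.49, SD, n = 48 cells). The TB mean was higher by 0.30, less than the spread between cells of either type. The highest EC scores were 8.07 in EC 6, 7.90 in EC 12, 7.48 in EC 2, 6.30 in EC 7 and 5.43 in EC 37, followed by 3.41 in EC 15 and 3.35 in EC 42. In TB they were 6.98 in TB 34, 6.16 in TB 43, 6.07 in TB 10, 5.97 in TB 19, 5.59 in TB 29 and 5.36 in TB 1, followed by 3.94 in TB 30. The widest gap between neighbouring cells lay between 3.41 and 5.43 in EC, with 5 cells above it, and between 3.94 and 5.36 in TB, with 6 cells above it. The 42 genes together took 0.00617% to 1.94% of a cell's counts in EC (median 0.0752%) and 0.0228% to 0.905% in TB (median 0.0868%).

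**Figure D1:**
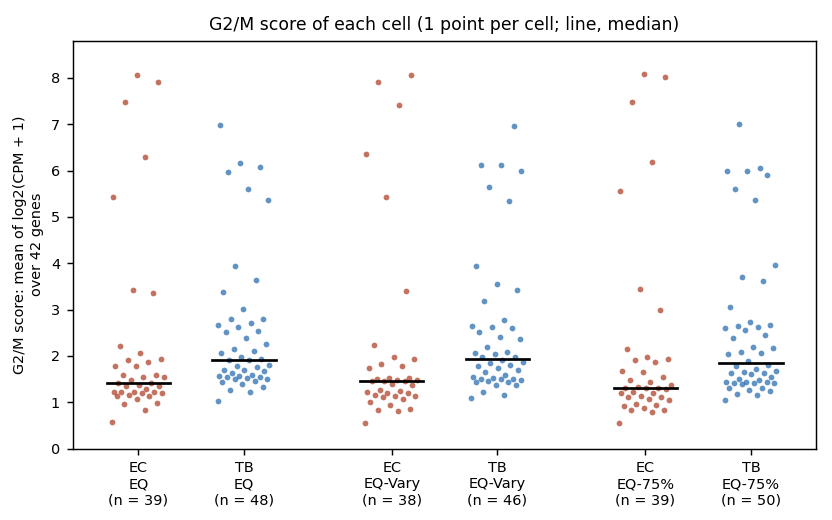
G2/M score, the mean of log2(CPM + 1) over 42 genes, on the vertical axis for each cell of each type and experiment, with 1 point per cell and a black line at the median. Each column has most cells between scores of 0.55 and 3 and a few cells above 5, up to 8.08 in EC and 7.0 in TB.

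The same contrast was seen gene by gene. EC cells had 2 to 41 of the 42 genes at 10 CPM or more (median 6) and TB cells 4 to 41 (median 9). At least 21 genes reached 10 CPM in 6 of 39 EC cells (15.4%, exact binomial 95% interval 5.86 to 30.5) and in 9 of 48 TB cells (18.8%, 8.95 to 32.6), intervals that cover counting error only. For the median gene of the 42, the 5 highest cells held 92% of the summed CPM in EC and 72.2% in TB. In TB this share was under 50% for 5 genes, BUB3 (27.6%), ANLN (42.4%), MAD2L1 (43.4%), CKAP2 (44.8%) and ECT2 (48.5%), and in EC for BUB3 (31.1%) alone. The median over every gene averaging 1 CPM or more was 62.8% in EC (11536 genes) and 48.3% in TB (11899 genes), and 5 equal cells would hold 12.8% and 10.4%. The 5 EC cells with the highest scores were not alike. EC 12 had the highest value of all EC cells for 12 of the genes, EC 6 for 10, EC 7 for 9 and EC 2 for 4. CDK1 was at 704 CPM in EC 6, 1510.0 in EC 12 and 768 in EC 2, but at 3.15 in EC 7 and 0 in EC 37. CCNB1 was high in each of these cells, at 598, 395, 390 (EC 2), 1009.6 (EC 7) and 547 (EC 37) CPM. EC 37 also held the highest EC values of CDC20 (792 CPM) and KIF20A (1054 CPM), with TOP2A at 18.1 and NDC80 at 0.328 CPM. Across TB cells the highest values were spread over 14 cells, led by TB 10 with 9 genes, TB 43 with 7 and TB 1 with 6.

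**Figure D2:**
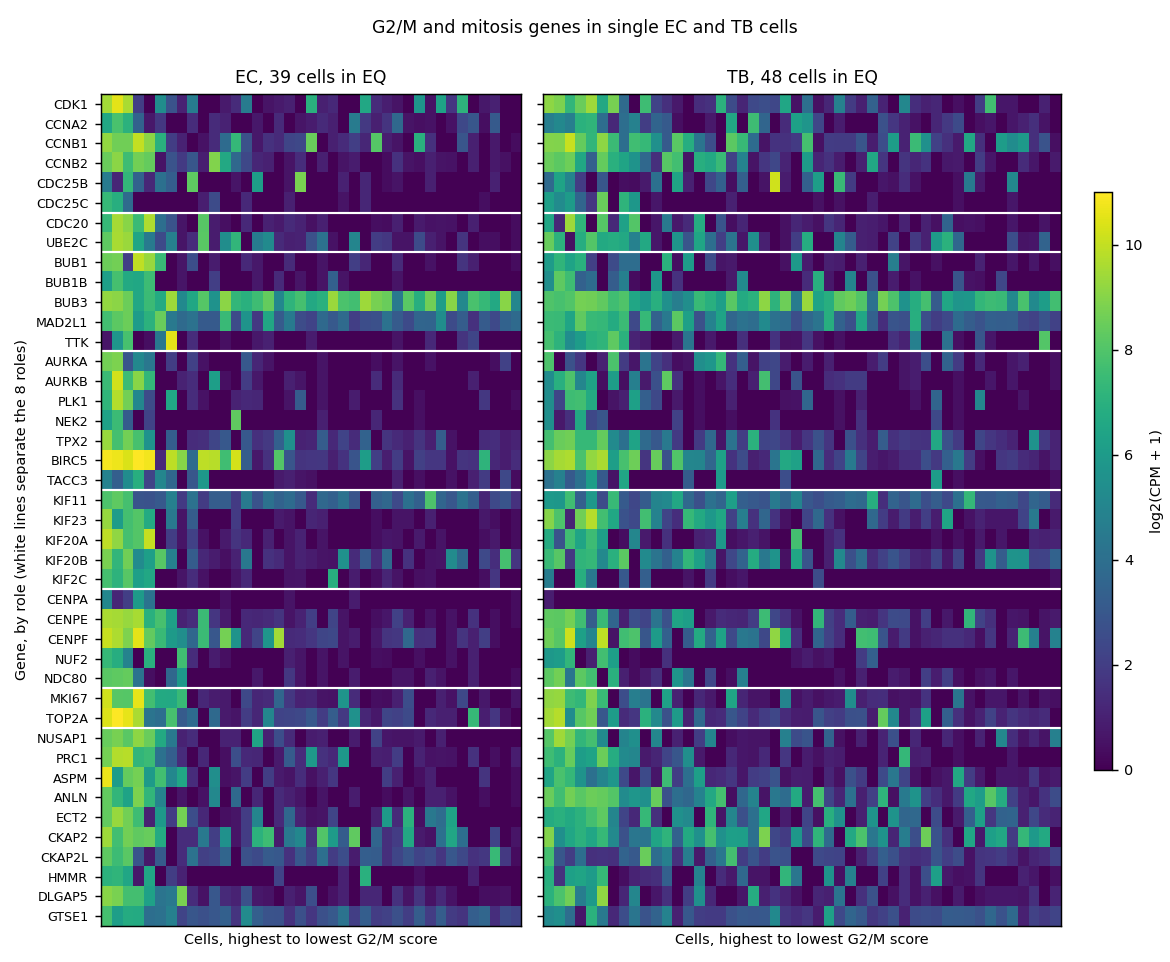
Heat map of log2(CPM + 1) for the 42 genes (rows, ordered by role with white lines between the 8 roles) in the EC cells (left, n = 39) and TB cells (right, n = 48) of EQ, each ordered from the highest to the lowest score. The leftmost columns, 5 cells in EC and 6 in TB, are bright across most rows, and CENPA is dark in TB. BUB3 has a value in every column, from 20.5 CPM upwards in EC and from 8.0 CPM upwards in TB.

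Among the cyclins, CDK1 and the CDC25 phosphatases, no gene differed between EC and TB by 2-fold. CCNB1, the main mitotic cyclin, was at 0 to 1009.6 CPM in EC (median 1.55, mean 104 ± 219, SD, n = 39) and 0 to 1085 in TB (median 13.9, mean 113 ± 202, SD, n = 48). CDK1, its kinase, had means of 91.9 ± 285 and 72.2 ± 157 CPM. CCNB2, a second B-type cyclin, had means of 63.3 ± 148 and 59.1 ± 106. CCNA2, the A-type cyclin of S phase and G2, was lower, at 13.9 ± 43.6 and 18.6 ± 40.8. The SDs in EC and TB exceeded the distance between the means for each of these genes. CDC25C, which activates CDK1 at mitotic entry, reached 10 CPM in 3 of 39 EC and 7 of 48 TB cells, and CDC25B in 7 and 10. The highest CDC25B values, 438 CPM in EC 3 and 1184 in TB 7, were in cells whose scores were not among the highest. CDC20 and UBE2C, the activator and the ubiquitin-conjugating enzyme of the APC/C, had means of 69.6 ± 192 and 63.8 ± 168 CPM in EC and of 35.2 ± 111 and 39.7 ± 70.8 in TB.

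The spindle checkpoint genes held the clearest exception to this pattern. BUB3 was at 20.5 to 674 CPM in EC (median 191, mean 256 ± 202, SD, n = 39) and 8.0 to 654 in TB (median 146, mean 184 ± 146, SD, n = 48), and was at 10 CPM or more in 39 of 39 EC and 47 of 48 TB cells. The highest EC value of BUB3 was in EC 42, and without that cell the EC mean was 245 CPM. BUB3 was the only gene of the 42 whose SD was below its mean, in EC and in TB. BUB1 and BUB1B, the checkpoint kinase and its relative, had a count in 20 and 14 EC cells and reached 977 CPM in EC 7 and 213 in EC 12. MAD2L1, which binds CDC20, had a count in every cell of both types, with medians of 10.8 CPM in EC and 12.9 in TB and highest values of 368 and 321. TTK, the kinase that starts the checkpoint, had a mean of 46.5 ± 242 CPM in EC, of which 82.9% came from the 1502 CPM of EC 42. Without that cell the EC mean was 8.15 CPM, against 31.6 ± 72.1 in TB.

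A count in every cell needs care for some of these genes. RSEM shares out a read with several matching genes, which leaves fractions. In EQ, fractions made up 100% of the nonzero values of MAD2L1 and at least 90% of those of 6 of the 42 genes, namely MAD2L1, CKAP2L, KIF11, GTSE1, BUB3 and TPX2, against a median of 23.6% over the 42. MAD2L1, GTSE1 and BUB3 were among the 4 genes with a count in every EC cell and, with KIF11, among the 5 in every TB cell. The part of shared reads in their low values was not tested.

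Of the mitotic kinases and their partners, BIRC5 (survivin, the chromosomal passenger protein that positions Aurora B) had the highest levels. It was at 0.465 to 2015 CPM in EC (median 3.17, mean 359 ± 624, SD, n = 39) and 0 to 797 in TB (median 5.02, mean 113 ± 220, SD, n = 48). Per kilobase of its canonical transcript BIRC5 had the highest mean of the 42 genes in EC, 139 CPM per kb, ahead of UBE2C (82.2), CCNB1 (51.02), CDK1 (48.7) and AURKB (48.3). In TB the order was CCNB1 (55.9), UBE2C (51.1), BIRC5 (43.8), CCNB2 (39.7) and CDK1 (38.2). Since the SD between cells exceeded the mean for 41 of the 42 genes in each type, no neighbours in these orders stood apart. AURKB, the kinase that BIRC5 positions, had means of 60.0 ± 211 and 24.3 ± 65.3 CPM in EC and TB. PLK1, the Polo-like kinase of spindle assembly and cytokinesis, had 39.5 ± 149 and 14.5 ± 43.4. AURKA, the spindle-pole kinase, had 23.9 ± 94.9 and 17.1 ± 53.0, and its activator TPX2 had 42.8 ± 126 and 45.6 ± 96.7. NEK2 and TACC3, which act at the centrosome and the spindle, were scarce, with 3 and 6 EC cells and 2 and 7 TB cells at 10 CPM or more.

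The 5 kinesins differed in how widely they were found. KIF20A, needed for cytokinesis, reached 10 CPM in 5 EC and 8 TB cells, and KIF2C, which takes microtubules apart at the kinetochore, in 6 and 3. KIF11, which pushes the spindle poles apart, reached it in 16 and 23 cells, KIF20B in 13 and 24 and KIF23 in 6 and 18. Of the kinetochore genes, CENPF and CENPE, large proteins of the outer kinetochore, had means of 152 ± 335 and 90.8 ± 224 CPM in EC and of 104 ± 232 and 44.7 ± 95.1 in TB. NDC80 and NUF2, which together bind microtubule ends, were at 10 CPM or more in 6 and 5 EC cells and in 9 and 5 TB cells. CENPA, the histone variant that marks the centromere, was the lowest of the 42 per kb, at 2.24 CPM per kb in EC and 0.0129 in TB. It was at 64.8 CPM in EC 7, 32.8 in EC 6 and 17.4 in EC 37, whereas the TB cells held 1 count in all, in TB 34.

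The chromosome proteins MKI67 (Ki-67, which coats mitotic chromosomes) and TOP2A (which untangles sister DNA) had medians near 0 and high extremes. MKI67 was at 0 to 1525 CPM in EC (median 1.07, mean 100.4 ± 305, SD, n = 39) and 0 to 603 in TB (median 0.657, mean 51.9 ± 139, SD, n = 48). TOP2A was at 0 to 2336 CPM in EC (median 3.61, mean 169 ± 492) and 0 to 866 in TB (median 3.04, mean 65.4 ± 174). Among the 10 genes of spindle assembly and cytokinesis, CKAP2, a microtubule-binding protein, was found most widely, at 10 CPM or more in 20 EC and 35 TB cells. ANLN (anillin, a scaffold of the contractile ring) reached it in 8 EC and 30 TB cells and ECT2 (which switches on RhoA at the cleavage site) in 13 and 22. PRC1 and NUSAP1, which bundle and stabilise spindle microtubules, reached it in 8 and 8 EC cells and 11 and 14 TB cells. For ASPM, a spindle-pole protein, the numbers were 9 and 12, for the spindle proteins DLGAP5 and HMMR 8 and 10 and 5 and 12, for GTSE1 10 and 13 and for CKAP2L 7 and 9.

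The means of the 42 genes were mostly higher in EC, although the typical TB cell had the higher score. On the scale of log2(mean CPM + 1), 31 genes were higher in EC and 11 in TB, with a median difference of 0.47 (EC minus TB), against -0.07 over the 12768 genes that averaged 1 CPM or more in either type. A difference of at least 2-fold towards EC was found for 12 of the 42 (TOP2A, BUB1, AURKB, PLK1, KIF20A, KIF2C, CENPA, CENPE, PRC1, ASPM, BIRC5 and NEK2) and for 18.1% of all genes tested. Towards TB it was found for 1, ANLN, and for 25.2% of all genes. The largest differences towards EC were KIF2C (23.97 ± 63.0 against 3.92 ± 17.6 CPM, log2 2.34), CENPA (3.11 ± 11.7 against 0.0179 ± 0.124, 2.01), BUB1 (65.7 ± 198 against 15.6 ± 36.4, 2.01), KIF20A (79.2 ± 243 against 19.97 ± 51.3, 1.93) and NEK2 (15.1 ± 58.6 against 3.50 ± 15.4, 1.84). Without the pseudocount, the 233 counts of CENPA in EC against 1 in TB give a ratio of 286 per total count (exact binomial 95% interval 50.8 to 11344, counting error only). The interval takes amplified reads, pooled over cells, as independent draws. Single cells carry this ratio, since the EC mean of CENPA was 1.49 CPM without EC 7 and the TB count was in TB 34 alone. The CENPA means were 3.32 CPM in EC and 0 in TB in EQ-Vary, and 3.13 and 0.106 in EQ-75%. The ratio of the means in EQ-75% is smaller than the interval from EQ covers, but that interval is for summed counts. The lowest values were ANLN (32.2 ± 93.1 in EC against 89.0 ± 124 in TB, log2 -1.44), KIF23 (33.4 ± 111 against 66.3 ± 159, -0.97), CDC25C (7.86 ± 31.99 against 15.5 ± 56.1, -0.90), CDC25B (26.7 ± 87.5 against 36.7 ± 172, -0.45) and CCNA2 (-0.39). For each of these genes the distance between the means was smaller than the larger SD, and the EC and TB cells overlapped.

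Single cells decided many of these ratios. When each cell was left out in turn, the number of genes at least 2-fold higher in EC ran from 7 (without EC 12) to 15 (without TB 1), and 15 of the 42 genes crossed a 2-fold limit. BUB1, KIF20A, KIF2C, CENPA and BIRC5 remained at least 2-fold higher in EC when any 1 cell of EQ was left out, and were so in all 3 experiments. ANLN remained at least 2-fold higher in TB in the same way. The experiments used the same cDNA. In EC, 5 cells held 99.1%, 99.4%, 90.9%, 98.4% and 61.7% of the summed CPM of the first 5 genes, in the order named. Leaving out 1 cell does not remove this dependence on a few cells. BUB1, KIF20A and BIRC5 reached 10 CPM in 5, 5 and 15 EC cells and in 10, 8 and 21 TB cells. For KIF2C and CENPA the numbers were 6 and 3 in EC and 3 and 0 in TB. Without EC 12, AURKB fell to a log2 difference of 0.29 and PLK1 to 0.32. Without EC 6, ASPM fell to 0.56, and without EC 16, a cell that is not among those with high scores, NEK2 fell to 0.84. TTK was at 0.54 with EC 42 and at -1.83 without it, and at -1.81 in EQ-Vary and -1.51 in EQ-75%, where EC 42 did not reach the depth limit. The sign was the same in all 3 experiments, which share their cells, for 38 of the 42. For this number and for the 15 genes that crossed a limit, the share over all genes was not computed.

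**Figure D3:**
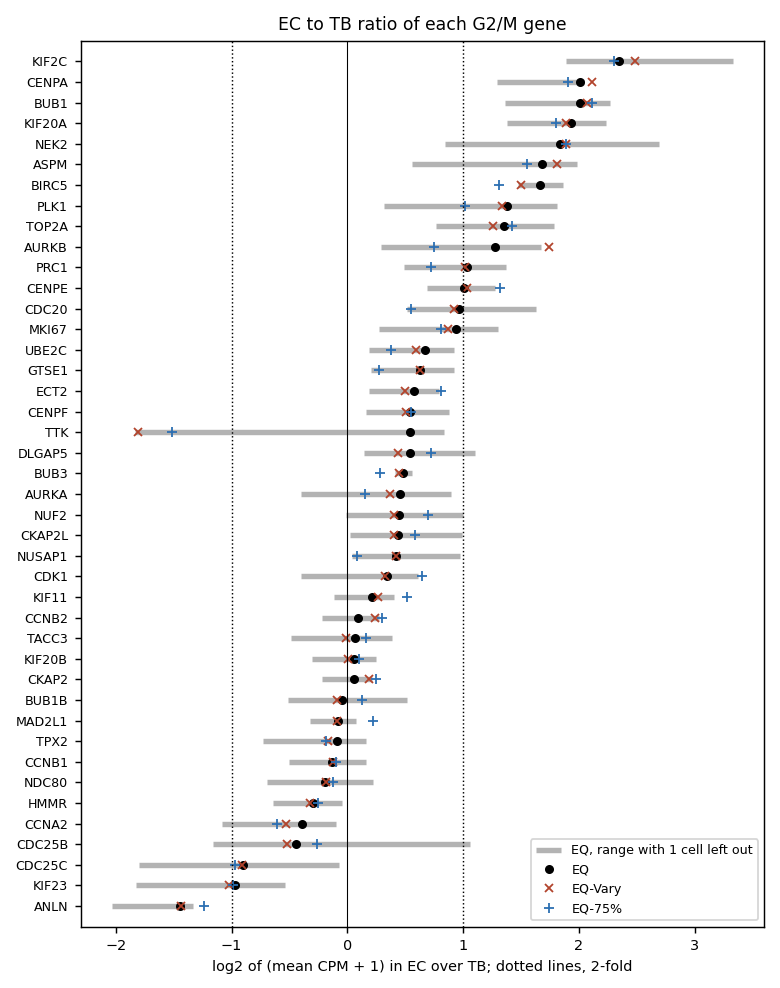
Difference between EC and TB in log2(mean CPM + 1) for each of the 42 genes (horizontal axis, positive towards EC), in EQ (black points), EQ-Vary (crosses) and EQ-75% (plus signs), with dotted lines at 2-fold. The grey bars give the range in EQ when each cell is left out in turn, from -2.03 to -1.33 for ANLN, from 1.89 to 3.33 for KIF2C and from -1.83 to 0.83 for TTK.

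The 42 genes varied together from cell to cell. Over all pairs of the 42 the median Spearman correlation of CPM was 0.362 in EC and 0.280 in TB, against 0.0222 and 0.0145 over all pairs of genes averaging 1 CPM or more. Cells of one type share their culture and library preparation, and the genes share each cell's total count and sampling depth. On log2(CPM + 1) the median Pearson correlation was 0.592 in EC and 0.378 in TB, against 0.0169 and 0.0132. The pair with the highest lower value of both types was TOP2A and NDC80, with 0.80 in EC and 0.73 in TB on log2(CPM + 1).

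The Spearman correlation of a gene with the mean log2(CPM + 1) of the other 41 was at least 0.5 for 18 of the 42 in EC and 11 in TB. The counts were 39 and 33 with Pearson correlations of log2(CPM + 1), an alternative chosen after seeing the data, and 19 in TB in EQ-75%. Among all genes tested, 0.572% of 11536 in EC and 0.605% of 11899 in TB reached 0.5 with the score of the 42. In EC the highest were CENPF (0.75), CCNB2 (0.71), DLGAP5 (0.70), NUSAP1 (0.69) and CENPE (0.69), and in TB they were CCNB2 (0.71), BIRC5 (0.70), PRC1 (0.68), MAD2L1 (0.66) and KIF23 (0.61). The genes that reached 0.5 in EC and in TB numbered 7, namely CCNB2, MAD2L1, AURKB, CENPE, PRC1, ASPM and BIRC5. BUB3 was lowest in EC (0.05) and near the bottom in TB (0.21). The other low values in EC were CCNA2 (0.16), CKAP2L (0.21), KIF20B (0.21) and CDK1 (0.22), and in TB CKAP2 (0.18), GTSE1 (0.20), CENPA (0.25, from its 1 count) and CDC25B (0.29). CDK1 stood at 0.55 and CCNA2 at 0.45 in TB. The difference between the types was not tested. On log2 values CDK1 and CCNA2 had Pearson correlations of 0.56 and 0.71 in EC.

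**Figure D4:**
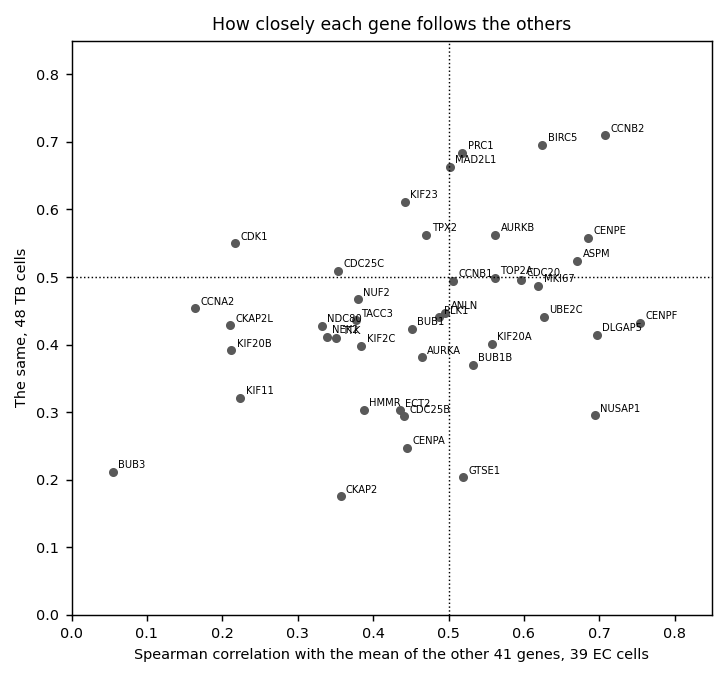
Spearman correlation of each of the 42 genes with the mean of the other 41, over 39 EC cells (horizontal axis) and 48 TB cells (vertical axis), with dotted lines at 0.5. CCNB2 lies at the upper right (0.71 in EC and 0.71 in TB), BUB3 at the lower left (0.05 and 0.21), and CDK1 high in TB and low in EC (0.55 and 0.22).

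Genes outside the 42 were ranked by their correlation with the score. Among genes with a mean of at least 10 CPM (8205 in EC and 8577 in TB), the highest Spearman correlations in EC were HMGB1 (0.66), NCAPG, a condensin subunit (0.66), CDKN3 (0.64), RRM2, a ribonucleotide reductase subunit (0.61), HMGN2 (0.60), PRR11 (0.60), PELP1 (0.60), CTSV (0.58), FOXM1, a transcription factor of G2/M genes (0.58), and PTTG1, securin (0.57). In TB they were CENPU (0.75), the histone variant gene H2AFZ (0.73), the PCNA-binding factor KIAA0101 (0.71), RAD51AP1 (0.67), IQGAP3 (0.67), CLSPN (0.67), TUBA1B, an alpha-tubulin (0.66), FANCI (0.64), SHCBP1 (0.64) and MELK (0.63). PELP1 and CTSV, with 0.60 and 0.58 in EC, had -0.22 and 0.04 in TB. CTSV had a mean of 36.03 CPM in EC and 1545 in TB. HMGB1, HMGN2, H2AFZ, PTTG1 and TUBA1B have near-identical copies in the genome, so their counts are uncertain.

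Other genes of the cell cycle were taken from lists. Of 40 further mitosis genes, 36 were in the tables under these symbols and none of the 35 tested in each type had a negative correlation with the score. The correlation reached 0.5 for 9 in EC and 11 in TB, with medians of 0.42 and 0.42, and in mean CPM 6 of 36 were at least 2-fold higher in EC and 4 in TB, beside 18.1% and 25.2% of all genes tested. Those with the highest values were NCAPG (0.66), CDKN3 (0.64), CDCA2 (0.61) and PTTG1 (0.57) in EC, and MELK (0.63), CDKN3 (0.63), CDCA2 (0.59) and the condensin subunit NCAPD2 (0.57) in TB. Of 14 APC/C subunits and inhibitors, none reached 0.5 in either type, with medians of 0.03 in EC and 0.10 in TB. CDC20 and UBE2C, among the 42, had 0.60 and 0.63 in EC and 0.496 and 0.441 in TB, where neither reached 0.5. Of 17 CDK inhibitors and G1 genes, 15 were in the tables and none reached 0.5. The next genes were chosen after their values were seen. TOB1, an anti-proliferative gene, had the most negative value in TB, -0.49, and 0.04 in EC. CCND1, the cyclin D1 gene, had means of 183 CPM in EC and 5.89 in TB and correlations of 0.23 and -0.15. Of 12 genes for regulators of G2/M promoters, FOXM1 reached 0.5 in EC (0.58, with 0.41 in TB) and MYBL2 (B-Myb, a partner of the MuvB complex) in TB (0.56, with 0.37 in EC), whereas the MuvB subunits, named as a group, LIN9, LIN37, LIN52 and LIN54 lay between -0.10 and 0.23.

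The S phase list was compared with the G2/M score in each type. It holds 29 genes of DNA replication and nucleotide supply, and in TB its mean ran from 1.42 to 6.33 (mean 2.79 ± 1.34, SD, n = 48) and correlated with the G2/M score at 0.76 (Spearman). In EC it ran from 0.94 to 4.73 (mean 1.88 ± 0.69, SD, n = 39) and correlated at 0.38. As Pearson correlations the values were closer, 0.73 in TB and 0.53 in EC. The Spearman values were 0.73 and 0.41 in EQ-Vary and 0.76 and 0.43 in EQ-75%, which used the same cells, and the difference between the types was not tested. None of the 27 genes tested was at least 2-fold higher in EC and 12 were in TB, beside 18.1% and 25.2% of all genes tested. The highest correlations with the score in TB were CLSPN (0.67), TYMS (0.60), GINS2 (0.59) and CHAF1A (0.54), and in EC RRM2 (0.61) and CLSPN (0.52). Among the 12, and named after their values were seen, were MCM2, MCM4, MCM5 and MCM6 of the replicative helicase (42.1, 83.7, 44.8 and 42.3 CPM in TB against 10.2, 14.9, 9.72 and 14.3 in EC) and PCNA, the sliding clamp (84.0 against 31.2). Cells high for the 42 genes were not alike in this list. EC 6, EC 12, EC 2, EC 7 and EC 37 had S phase means of 2.94, 2.75, 2.28, 2.93 and 2.15. TB 19, TB 29, TB 43 and TB 34 had 6.24, 5.91, 5.16 and 4.19, and TB 10 and TB 1 had 3.14 and 3.07. TB 30 and TB 39, with G2/M scores of 3.94 and 3.64, had S phase means of 6.16 and 6.33. EC 15, the EC cell highest in the S phase list (4.73), was also the lowest EC cell in endothelial markers (3.88) and the highest in pluripotency markers (6.83). The part of these markers in its values was not tested. Within EC, the mean of the trophoblast list correlated with the G2/M score at 0.56 and that of the endothelial list at -0.08. In TB these were -0.05 and 0.02.

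**Figure D5:**
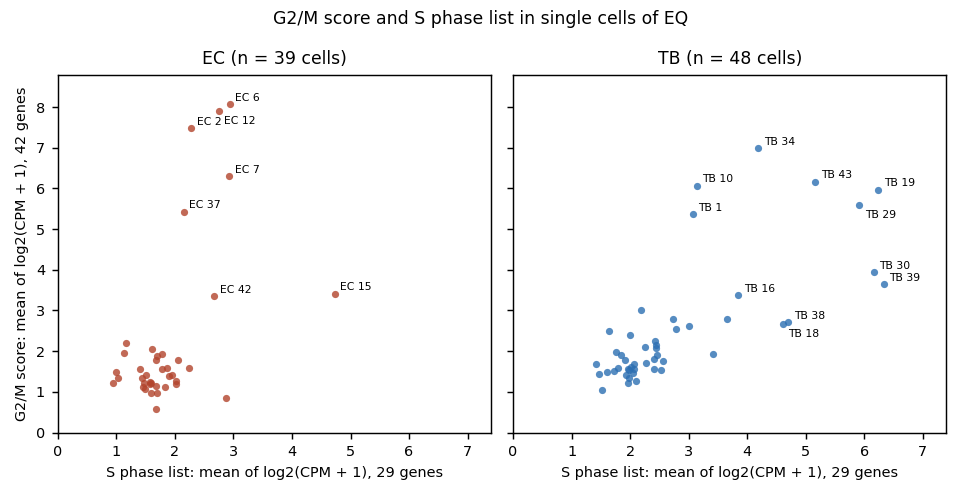
G2/M score (vertical axis) against the mean log2(CPM + 1) of 29 S phase genes (horizontal axis) for each EC cell (left, n = 39) and TB cell (right, n = 48) of EQ. The 5 highest EC cells stand above the others at S phase values of 2.15 to 2.94, and the TB cells spread to the upper right, up to 6.33 on the horizontal axis.

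The promoters of the 42 genes were searched for elements known from G2/M genes. RefSeq promoter windows (GRCh38.p14, 250 bases before to 50 after a start site) were at hand for 36 of the 42 genes, in 45 windows. TTK, BIRC5, BUB3, AURKA, TPX2 and UBE2C had no entry. The CHR element was searched as TTTGAA and the CCAAT box as CCAAT, each on both strands. Matches of CHR and CCAAT can share a base, as they do in MKI67. CHR was in 28 of the 45 windows (62.2%), in 25 of the 36 genes, and in 15.2% of all 35116 windows. CCAAT was in 32 windows (71.1%) and in 34.6% of all. Both were in 23 (51.1%) and in 5.90% of all. In a range chosen after the positions were seen, 13 of the 45 windows had a CHR starting 10 to 35 bases before the start site, as did 1.38% of all windows. The following stretches, from 130 bases before to 20 after the start, show a CHR close to the start with a CCAAT box before it in CCNB2, PRC1 and PLK1, then CENPA, which was near 0 in TB, and KIF2C, which had the largest difference towards EC with the pseudocount of 1 (CENPA had without it) and neither motif in its window. Capitals mark CHR and CCAAT matches on either strand, and each runs 5′ to 3′ on the gene's strand.
CCNB2: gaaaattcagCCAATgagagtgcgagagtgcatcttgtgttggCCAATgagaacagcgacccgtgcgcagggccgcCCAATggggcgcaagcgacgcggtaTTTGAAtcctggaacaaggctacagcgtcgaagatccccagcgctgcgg
PRC1: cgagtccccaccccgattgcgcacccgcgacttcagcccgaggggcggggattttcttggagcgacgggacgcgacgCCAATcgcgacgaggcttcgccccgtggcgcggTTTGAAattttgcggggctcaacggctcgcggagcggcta
PLK1: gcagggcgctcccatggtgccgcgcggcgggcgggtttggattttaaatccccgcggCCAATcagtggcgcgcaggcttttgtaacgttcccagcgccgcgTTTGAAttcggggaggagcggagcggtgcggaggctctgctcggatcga
CENPA: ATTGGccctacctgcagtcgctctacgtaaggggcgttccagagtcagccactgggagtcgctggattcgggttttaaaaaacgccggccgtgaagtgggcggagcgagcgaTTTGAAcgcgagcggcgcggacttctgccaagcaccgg
KIF2C: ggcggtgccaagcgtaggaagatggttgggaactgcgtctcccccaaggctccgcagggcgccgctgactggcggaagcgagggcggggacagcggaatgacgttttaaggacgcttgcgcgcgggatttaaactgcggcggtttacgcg
CCNB2, which followed the other genes closely in both types, has its CHR at 29 bases before the start and CCAAT boxes at 120, 87 and 54, each counted to the first base of the match. PRC1 has them at 20 and 53, and PLK1 at 29 and 73. CENPA has a CHR at 18 and a CCAAT on the opposite strand at 130. The stretches lie at CCNB2 chr15:59105016-59105165, PRC1 chr15:90994516-90994665, PLK1 chr16:23678759-23678908, CENPA chr2:26785926-26786075, KIF2C chr1:44739707-44739856, with PRC1 on the minus strand and the others on the plus strand. Genes whose windows lacked TTTGAA were AURKB, BUB1, CCNA2, CCNB1, CDC25B, CENPE, CKAP2, KIF20A, KIF2C, NEK2 and TACC3. With TTCGAA also accepted, a match was in 30 of the 45 windows, in 27 of the 36 genes and in 16.4% of all windows. BUB1 and CDC25B then had a match. Other forms of CHR were not searched. AURKB and CENPE lacked both forms and had correlations with the other 41 genes of at least 0.5 in EC and in TB. These letters were thus not shared by all genes that varied together. A match is a run of letters and not a measured binding site.

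The scores of a cell in different experiments, made from the same cDNA, were nearly equal. Over the cells passing in both, the score in EQ was higher than in EQ-Vary by 0.0474 ± 0.095 for EC (SD, 38 cells) and 0.00973 ± 0.0927 for TB (SD, 46 cells), and higher than in EQ-75% by 0.102 ± 0.147 for EC (SD, 37 cells) and 0.0492 ± 0.118 for TB (SD, 47 cells). Each mean was smaller than the SD of the paired differences, but without thinning they leaned one way. That SD is the spread between cells and not the error of the mean. Scores from libraries thinned to 250000 counts did not all lean this way. For TB the thinned means were -0.0559 (EQ minus EQ-Vary) and -0.00507 (EQ minus EQ-75%). For EC they were 0.00987 and 0.0807 in the same order. Without thinning, the score was higher in EQ than in EQ-Vary in 26 of 38 EC and 26 of 46 TB cells. It was higher than in EQ-75% in 27 of 37 EC and 31 of 47 TB cells. Across EC cells the scores correlated (Pearson) at 0.999 with those of EQ-Vary and at 0.998 with those of EQ-75%. Across TB cells these correlations were 0.998 and 0.997. For single genes, the median correlation of log2(CPM + 1) between EQ and EQ-75% was 0.970 in EC and 0.972 in TB, with the lowest values 0.879 for KIF11 in EC and 0.681 for CENPA in TB. EC 6 had scores of 8.07, 8.05 and 8.08 in EQ, EQ-Vary and EQ-75%, and TB 34 had 6.98, 6.97 and 7.0. More of the 42 genes had a count in EQ than in EQ-75%, by 4.22 ± 3.84 genes per EC cell and 2.04 ± 3.14 per TB cell. With libraries thinned to 250000 counts, 16.5 ± 9.86 genes had a count in an EC cell (5 to 41, n = 39) and 19.3 ± 8.32 in a TB cell (9 to 41, n = 48), and the excess over EQ-75% was 1.14 ± 2.64 genes in EC and -0.234 ± 2.94 in TB. The score had a Spearman correlation with a cell's total count of -0.28 in EC and 0.06 in TB. As Pearson correlations with the log10 total the values were 0.038 in EC and 0.045 in TB. With the number of genes detected, the Spearman correlation of the score was 0.11 in EC and 0.30 in TB. With genes counted after thinning to equal depth it was 0.37 in EC and 0.24 in TB.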

How the data were processed

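Expected counts of 17492 protein-coding genes in 288 libraries were analysed, from 45 EC and 51 TB cells that all 3 experiments share. The authors trimmed reads to 51 bp, aligned them with Bowtie 1.2.3, at most 2 mismatches allowed, to the protein-coding genes of Ensembl on GRCh38, and deposited RSEM 1.2.31 expected counts without normalization. Because RSEM divides reads that map to several genes, values need not be whole, and they were rounded. Sample columns left unused numbered 0. The unEQ libraries were not analysed here. Doublets and dead cells had been removed by image in the original capture, and no doublet caller was run.

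The 42 genes, the lists of other genes and the comparisons were chosen with earlier results of these data known. CPM was the rounded count per 1000000 counts of a cell. Cells with a log10 total of at least 5.4 were kept, without the limit of 31% in the top 50 genes, which was an alternative. EC and TB were compared by log2 of (mean CPM + 1), with a pseudocount of 1, for genes with a mean of at least 1 CPM in either type. Cells were paired across experiments by number, since the same cDNA was used. Named genes were all 42, with full values for the 5 highest and 5 lowest ratios and the 5 highest and 5 lowest correlations in each type, the 10 other genes most correlated with the score in each type, and up to 4 per list. Genes without a match under the symbol searched (CDKN1A, CDKN2C, RFC4, SGO1, SGO2, KIF14 and ESPL1) were not used here. Coordinates and transcript lengths were from GENCODE v44 and promoters from RefSeq (GRCh38.p14). Ratios, correlations and thinning were tested on simulated data. Python 3.11.15, numpy 2.4.6, pandas 2.3.3, scipy 1.17.1, R 4.3.3 and scran 1.30.0 were used. Alternatives were the experiment, the limits on cells, scran size factors, thinning, the pseudocount, the filter, the kind of correlation and leaving out each cell.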

Additional observations from a re-analysis of the deposited data

Results flagged for a closer look

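A pair of EQ libraries under the depth limit, which entered only the alternatives with all cells, held counts of many of the 42 genes. TB 4 had 45803 counts in EQ, of which 290 fell on 36 of the 42 genes, and a score of 5.75, where 1 count is worth 21.8 CPM. In EQ-75% the same cell had 999518 counts and a score of 5.91, just below that of TB 19 (5.98). EC 1 had 11404 counts in EQ, with 72 on 24 of the genes and a score of 4.37, where 1 count is worth 87.7 CPM. In EQ-75%, at 1353233 counts, its score was 2.98.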

How the results depend on the processing

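Of 111 alternative values of 18 results, 93 stayed within a spread set for the result or, for counts, within 1.5 times the reported value. The spread was the SD between cells for the EC and TB score difference and for genes detected per cell. For the score difference of -0.30 this was 1.73, so that a value of opposite sign could still lie within it. For genes detected it was 9.86 in EC and 8.32 in TB. For score differences between experiments the spread was the SD of the paired differences, which exceeded each mean difference. For these results, staying within the spread therefore says little about stability. For correlations and for the SD of the score it was a standard error from leaving out each cell in turn (jackknife). The number of genes at least 2-fold higher in TB was the least stable, at 1 as reported, 2 with both limits on cells, 2 with all cells, 3 in EQ-Vary, 2 in EQ-75%, 3 after thinning to 250000 counts, 2 from summed counts, and 1 to 4 with each cell left out (4 without EC 12). The number higher in EC was 12, and 7 to 15 with each cell left out. Genes detected per cell rose without thinning to 27.8 in EC and 30.1 in TB, since deeper libraries were then counted in full, and with a count of at least 5 required the values fell to 8.56 in EC and 10.8 in TB. The median pairwise correlation was 0.592 in EC and 0.378 in TB as a Pearson correlation of log2(CPM + 1), and 0.308 to 0.373 and 0.250 to 0.289 with each cell left out. The genes with a correlation of at least 0.5 with the others numbered 39 in EC and 33 in TB by Pearson, and 19 in TB in EQ-75%, and the cause was not tested. In EQ-Vary the correlation of the score with the total count was -0.0423 in EC and -0.106 in TB. The TB mean score exceeded the EC mean under every alternative run, by 0.21 to 0.46 with each cell left out. Without the pairing of cells by number (no replicate block), the EC difference was 0.0772 for EQ minus EQ-Vary and 0.0887 for EQ minus EQ-75%, and the TB differences were -0.000731 and 0.00411. Leaving each cell out for the 2-fold counts and the Pearson form of the gene counts were chosen after seeing the data. CENPA, NEK2 and CDC25C had a count in at most 15 cells of either type, and the part of depth in this was not tested.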
